A study of Mus musculus with 17 samples.

Results

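The levels of 10 imprinted genes of growth control were followed in hearts 5d after myocardial infarction (MI). They are H19, Meg3, Rian, Dlk1, Peg3, Cdkn1c, Plagl1, Mest, Grb10 and Ndn. The members were chosen by name, with earlier results of these data known. They are the rows of the count table whose gene identifier belongs to these symbols, and all 10 had a row among 31647 features. The hearts came from male C57BL/6J wild-type mice aged 8 to 11 weeks, with no transgene in either group. In 9 mice the left anterior descending coronary artery was ligated permanently and the infarct zone (IZ) was cut from the left ventricle, apart from the remote zone. In 8 sham-operated mice the surgery was done without ligation and left ventricular tissue was taken. The sham samples are named as replicates 1 to 8 and the IZ samples as replicates 1 to 9. The ligation was not followed by reperfusion, and each library is bulk tissue, so fewer cells of a type and less RNA per cell cannot be told apart.

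Imprinted genes are expressed mainly from the chromosome inherited from 1 parent, and the choice is set by DNA methylation laid down in the egg or the sperm. H19, Meg3, Rian and Cdkn1c are expressed from the maternal chromosome, as is Grb10 outside neurons, whereas Dlk1, Peg3, Plagl1, Mest and Ndn are expressed from the paternal chromosome. Many of these genes are highly expressed in the embryo, decline after birth and act on body and organ growth. The mice are inbred and the counts do not separate the alleles, so parental origin was not measured here and every value below is a total over both chromosomes.

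Each count is 1 tag from the 3′ end of a transcript, so levels are not scaled with transcript length. They are given as CPM, the usual counts relative to library size, here after scaling of the libraries with TMM (the trimmed mean of M values). A gene is called where the quasi-likelihood test of edgeR gave an adjusted p under 0.05. The position of tags on a transcript was not read here. The annotated 3′ ends of the 3 noncoding RNAs among the members, H19, Meg3 and Rian, are shown with the polyadenylation signal AATAAA in capitals. They are the last 60 bases of the annotated transcripts on GRCm38 (mm10), which fall inside the last exon, at chr7:142575529-142575588 on the minus strand for H19, at chr12:109571667-109571726 on the plus strand for Meg3 and at chr12:109661657-109661716 on the plus strand for Rian.
H19: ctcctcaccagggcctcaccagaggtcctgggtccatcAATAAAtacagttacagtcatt
Meg3: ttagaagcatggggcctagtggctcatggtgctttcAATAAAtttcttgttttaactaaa
Rian: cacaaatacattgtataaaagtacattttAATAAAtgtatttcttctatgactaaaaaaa

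H19, Meg3, Rian and Mest are also host genes of microRNAs. The hairpins of miR-675 and miR-770 lie in an exon of H19 and of Meg3, and that of miR-335 lies in an intron of Mest. Rian holds 3 hairpins in its introns, of miR-341, miR-1188 and miR-370. The mature sequences of RefSeq are shown for the 3 hosts with the highest levels in the IZ among these genes, with the seed (bases 2 to 8) in capitals. None of the seeds was shared between these microRNAs. The microRNAs themselves were not measured here, since only polyadenylated 3′ ends were counted.
miR-675-5p: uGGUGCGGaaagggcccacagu
miR-675-3p: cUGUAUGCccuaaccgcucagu
miR-770-5p: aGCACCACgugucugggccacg
miR-770-3p: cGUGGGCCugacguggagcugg
miR-335-5p: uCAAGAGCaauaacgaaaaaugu
miR-335-3p: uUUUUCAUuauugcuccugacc

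Promoter windows of 300 bases (250 before the start and 50 after it) were read from RefSeq on GRCm38.p6 for 8 of the members, 12 windows in all, and are not shown for H19 and Cdkn1c. The methylated form of TGCCGC is bound by Zfp57, a zinc finger protein that keeps methylation at imprinted loci, and GGGGCCCC is a motif of Plagl1 itself. TGCCGC on either strand was found in 5 of the 12 windows and in 11.6% of the 32851 windows of all genes. Of these 5, 2 are windows of Mest that start 3 bases apart and hold the same matches, so 4 promoters are counted. GGGGCCCC, which reads the same on both strands, was found in 1 of the 12 windows and in 1.08% of all windows. The 4 windows below, of paternally expressed genes and Meg3, each hold at least 1 of these motifs, in capitals (GCGGCA is TGCCGC read from the other strand). These are matches of letters only. No binding or methylation was measured. The window of Plagl1 holds 26 CpG dinucleotides, that of Mest 17 and those of Meg3 and Peg3 13 each, against a median of 7 over all windows. The other windows of members held 0 (Rian) to 45 CpG (Grb10, which also holds TGCCGC and is not printed). Their positions are chr6:30737800-30738099 for Mest, chr10:13090582-13090881 for Plagl1 and chr12:109540746-109541045 for Meg3, on the plus strand, and chr7:6730370-6730669 for Peg3, on the minus strand.
Mest: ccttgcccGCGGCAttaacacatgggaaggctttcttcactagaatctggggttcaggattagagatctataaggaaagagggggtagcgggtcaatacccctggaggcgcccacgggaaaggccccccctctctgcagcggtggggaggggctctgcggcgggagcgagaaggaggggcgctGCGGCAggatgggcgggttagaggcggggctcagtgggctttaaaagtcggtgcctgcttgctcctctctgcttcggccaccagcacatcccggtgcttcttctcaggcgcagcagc
Plagl1: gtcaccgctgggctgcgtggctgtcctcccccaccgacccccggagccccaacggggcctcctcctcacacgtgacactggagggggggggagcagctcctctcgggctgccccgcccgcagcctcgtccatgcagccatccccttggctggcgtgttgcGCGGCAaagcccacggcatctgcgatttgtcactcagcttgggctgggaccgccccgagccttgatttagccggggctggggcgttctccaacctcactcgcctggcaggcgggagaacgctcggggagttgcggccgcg
Meg3: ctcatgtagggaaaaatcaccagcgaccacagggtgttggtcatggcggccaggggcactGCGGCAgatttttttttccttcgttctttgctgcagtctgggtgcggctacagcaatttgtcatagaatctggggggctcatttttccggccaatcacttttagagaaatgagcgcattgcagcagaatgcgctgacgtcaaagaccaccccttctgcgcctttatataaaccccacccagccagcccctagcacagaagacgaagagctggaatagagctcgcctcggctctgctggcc
Peg3: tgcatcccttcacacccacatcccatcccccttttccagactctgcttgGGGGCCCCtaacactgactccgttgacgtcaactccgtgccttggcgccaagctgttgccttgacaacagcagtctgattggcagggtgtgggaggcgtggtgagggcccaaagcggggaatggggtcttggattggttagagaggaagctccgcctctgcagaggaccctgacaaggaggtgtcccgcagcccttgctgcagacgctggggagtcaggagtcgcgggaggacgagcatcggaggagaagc

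The libraries held 1237675 to 4738307 counts, and 12301 genes passed the filter on low counts. Mitochondrially encoded transcripts took 22.9% to 32.4% of the counts in sham, 19.5% in IZ replicate 1 and 4.22% to 6.78% in the other IZ libraries. The cardiomyocyte markers summed to 59887 to 71500 CPM in sham, as the tissue label says, to 26600 CPM in IZ replicate 1 and to 2731 to 6445 CPM in the other IZ libraries. IZ replicate 1 thus stood apart from its group, and where leaving it out changed a call or moved a value by over 1.5 times, the value without it is given. The change in tissue was broad: 69.5% of the genes tested were called, 36.3% as higher and 33.1% as lower in the IZ, and every IZ library lay above every sham library for 16.6% of them. Calls of members and of the other gene lists are to be read against these shares.

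Of the 10 members, 8 passed the filter, and Dlk1 and Plagl1 did not. The filter asks for enough counts in as many libraries as the smaller group holds. Rian, Peg3 and Mest, with 3 to 10, 3 to 15 and 8 to 17 counts per sham library, met it only through the IZ. The numbers of calls, the median and the count without overlap below include them. Without them, H19, Meg3, Ndn and Grb10 were called higher, by 2.97, 2.69, 1.12 and 0.54 on the log2 scale. Cdkn1c was called lower, at -1.74. Of the 8, 7 were called higher in the IZ (36.3% of all genes tested) and 1, Cdkn1c, was called lower (33.1%). Their median log2 fold change was 1.90, against 0.05 over all genes tested, and every IZ library lay above every sham library for 5 of them (16.6% of all genes tested). Summed over the 10 members, the level was 127 to 185 CPM in sham and 418 to 592 CPM in the IZ, with the lowest IZ value in replicate 1.

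**Figure D1:**
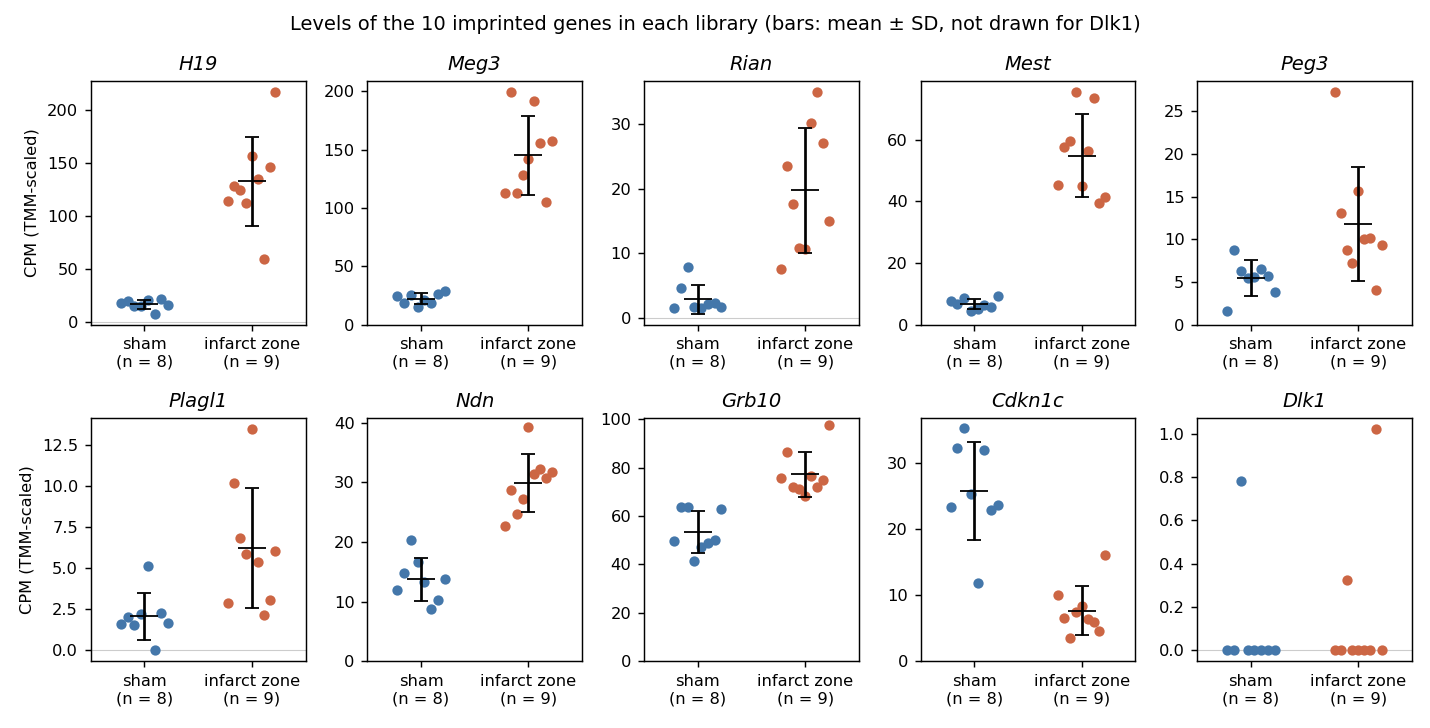
Level of each of the 10 genes in CPM (vertical axes, linear, scaled separately) in the 8 sham and the 9 IZ libraries. Points are libraries and bars are the mean ± SD, not drawn for Dlk1. H19, Meg3, Mest, Grb10 and Ndn show no overlap between the groups, Cdkn1c runs the other way, and Dlk1 is at 0 in most libraries.

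H19 is a long noncoding RNA whose gene shares its control region with the neighbouring fetal growth factor gene Igf2. It lies on chromosome 7 at 142575529 to 142578143, on the minus strand (ENSMUSG00000000031). In sham replicates 1 to 8 H19 stood at 17.9, 19.5, 14.9, 14.9, 20.5, 8.01, 21.4 and 16.5 CPM, from 11 to 56 counts. In IZ replicates 1 to 9 it stood at 114, 128, 125, 112, 157, 135, 59.6, 146 and 217 CPM, from 111 to 931 counts. The groups did not overlap, with the lowest IZ value in replicate 7 and the highest in replicate 9. The mean rose from 16.7 ± 4.27 CPM (SD, n = 8) to 133 ± 41.9 CPM (SD, n = 9), by 2.97 ± 0.21 on the log2 scale (SE), or 7.82-fold (edgeR quasi-likelihood test, adjusted p = 2.78e-11).

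Meg3, a long noncoding RNA, and Rian, a further noncoding RNA downstream of it, belong to the Dlk1-Dio3 cluster, where the maternal chromosome expresses a series of noncoding RNAs and the paternal chromosome expresses protein-coding genes. Meg3 lies on chromosome 12 at 109541001 to 109571726, on the plus strand (ENSMUSG00000021268). In sham replicates 1 to 8 it stood at 24.9, 18.8, 25.9, 14.9, 21.5, 18.2, 25.9 and 29.2 CPM. In the IZ it ranged from 105 CPM in replicate 8 over a median of 142 CPM to 200 CPM in replicate 2. No IZ library came near the highest sham library. The mean rose from 22.4 ± 4.84 to 145 ± 34.2 CPM, by 2.69 ± 0.16 on the log2 scale (SE, adjusted p = 3.35e-12, edgeR). The last part of Meg3 is 99.6% identical to the predicted gene Gm27000 over 285 bases, so tags could be split between both genes. Gm27000 had 2 counts in the whole table.

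Rian lies on chromosome 12 at 109603940 to 109661716, on the plus strand (ENSMUSG00000097451). It was rarer, with 3 to 10 counts per library in sham and 19 to 171 in the IZ. In sham replicates 1 to 8 it stood at 1.63, 4.71, 7.84, 1.66, 1.54, 2.18, 2.29 and 1.65 CPM. In IZ replicates 1 to 9 it stood at 7.54, 23.6, 17.6, 10.8, 10.7, 30.2, 34.9, 27.1 and 15.1 CPM. In 8 of 9 IZ libraries Rian exceeded every sham library, and replicate 1 lay just under sham replicate 3. Rian rose by 2.82 ± 0.37 on the log2 scale (SE, adjusted p = 5.19e-07, edgeR).

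Dlk1 encodes a transmembrane protein related to the Notch ligands and lies 88.2 kb upstream of Meg3, on the plus strand (chromosome 12, 109452823 to 109463336, ENSMUSG00000040856). It was close to undetected. Sham replicate 3 held 1 count, IZ replicates 3 and 8 held 2 counts each, and the other 14 libraries held none. These values lie at or under the floor of 3 counts that a count of 0 allows, which is on average 1.77 CPM in sham and 1.05 CPM in the IZ, so a difference could not be detected at this depth. This floor covers counting error only.

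Further genes of the cluster were also low. Mirg, the noncoding RNA that hosts 14 microRNA hairpins 189 kb beyond the start of Meg3, had 0 to 4 counts per library in sham and 5 to 74 in the IZ. Its mean was 0.834 ± 0.710 CPM in sham and 6.30 ± 2.46 CPM in the IZ, and no IZ library overlapped with sham. Mirg did not pass the filter, and in the fit without a filter its log2 fold change was 2.82 ± 0.43 (SE, adjusted p = 5.83e-07, edgeR). Dio3, a deiodinase that inactivates thyroid hormone, had 1 count in sham replicate 6 and none in the other sham libraries, and 2 to 23 counts in the IZ. Rtl1, a paternally expressed gene derived from a retrotransposon, had no counts in sham and 0 to 5 in the IZ. Both are protein-coding and paternally expressed, and neither passed the filter. In the fit without a filter Dio3 and Rtl1 were also called higher in the IZ (adjusted p = 0.000121 and 0.0252, edgeR), with no fold given because sham lay at the floor. With DESeq2 Dio3 was called too (Wald test, adjusted p = 8.54e-05), but Rtl1 was given no adjusted p and was not called. Dio3 was above every sham library in 8 of 9 IZ libraries. So was Rtl1 in 5 of 9, where any count at all lay above sham.

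**Figure D2:**
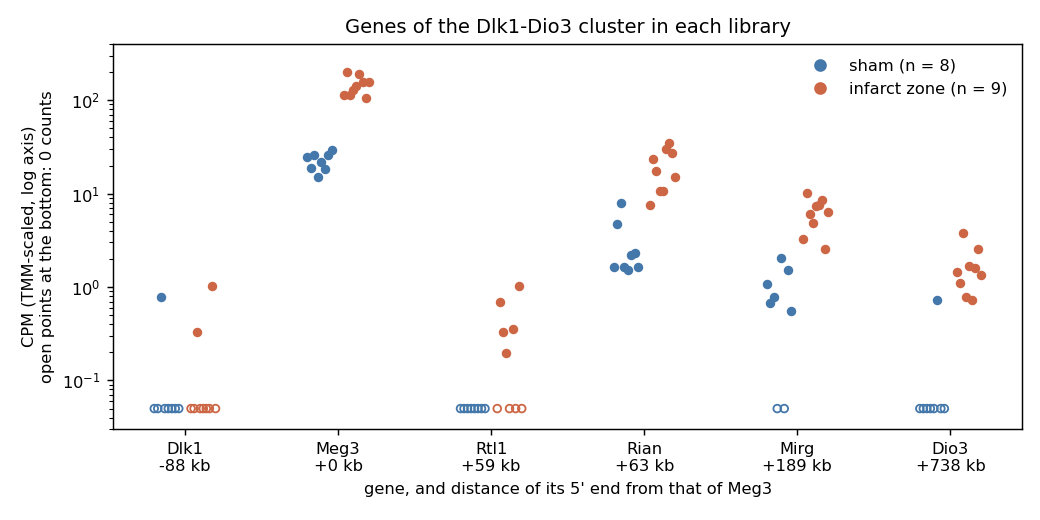
Levels of 6 genes of the Dlk1-Dio3 cluster in CPM (vertical axis, log scale) in each of the 8 sham and 9 IZ libraries, ordered along the chromosome with the distance of each 5′ end from that of Meg3. Open points at the bottom mark libraries with 0 counts. Meg3 and Mirg show no overlap between the groups, and Dlk1 and Rtl1 are at 0 in most libraries.

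Whether Meg3 and Rian changed together was tested by their ratio within a library, which does not depend on the scaling of libraries (1 count was added to each). The log2 ratio of Meg3 to Rian was 2.88 ± 0.79 in sham and 2.99 ± 0.68 in the IZ (SD, n = 8 and 9), a difference of 0.11 that did not pass the test (exact two-sided permutation test, p = 0.759, adjusted over 4 pairs 0.759). With 5 counts added in place of 1 the difference was 0.69 with an adjusted p of 0.0496 in the same exact test. Rian had only 3 to 10 counts per library in sham, and the part of these low counts was not tested. No ratio of Dlk1 to Meg3 was formed, as Dlk1 averaged under 3 counts.

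For H19 and Igf2, 88.7 kb apart, the ratio differed. Igf2 stood at 10.9 to 26.2 CPM in sham and at 4.68 to 11.8 CPM in the IZ, and 6 of 9 IZ libraries lay below every sham library. Its mean was 17.1 ± 5.40 CPM in sham and 8.15 ± 2.99 CPM in the IZ (log2 fold change -1.05 ± 0.22, SE, adjusted p = 0.000212, edgeR), and the log2 fold change became 0.016 with an adjusted p of 0.944 when libraries were scaled by total counts alone. The log2 ratio of H19 to Igf2 went from -0.02 ± 0.35 in sham to 3.98 ± 0.56 in the IZ. The difference of 4.0015, or 16.02-fold, was present in 9 of 9 IZ libraries (exact two-sided permutation test, p = 4.11e-05, the smallest these group sizes allow, adjusted 8.23e-05). The counts of the 2 genes were about equal in sham, with a geometric mean ratio of 0.983, and H19 counts were 15.7 times those of Igf2 in the IZ.

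Cdkn1c was the member that fell. It encodes p57, an inhibitor of cyclin-dependent kinases that restrains the cell cycle, and lies on chromosome 7 at 143458339 to 143461050, on the minus strand (ENSMUSG00000037664). In sham replicates 1 to 8 it stood at 23.3, 32.3, 35.3, 25.4, 11.8, 32.0, 22.9 and 23.7 CPM. In IZ replicates 1 to 9 it stood at 10.1, 6.62, 3.59, 7.45, 8.42, 6.48, 5.91, 4.60 and 16.1 CPM. Only IZ replicate 9 reached into the range of sham, above sham replicate 5. Its mean was 25.8 ± 7.43 CPM in sham and 7.69 ± 3.68 CPM in the IZ, which is 3.35-fold lower (log2 fold change -1.74 ± 0.25, SE, adjusted p = 1.22e-06, edgeR). Scaled by total counts alone it was -0.69 with an adjusted p of 0.0105 in edgeR, in the same direction.

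Cdkn1c shares its imprinted domain with the potassium channel gene Kcnq1 and the paternally expressed noncoding RNA Kcnq1ot1. Kcnq1 stood at 17.6 to 39.5 CPM in sham, at 23.0 CPM in IZ replicate 1 and at 3.22 to 5.76 CPM in the other IZ libraries (log2 fold change -2.20 ± 0.30, SE, adjusted p = 6.79e-07, edgeR). Kcnq1ot1 went from 20.4 ± 3.57 to 25.3 ± 1.66 CPM (0.31 ± 0.12, SE, adjusted p = 0.0218). The log2 ratio of Cdkn1c to Kcnq1 was -0.27 ± 0.73 in sham and 0.29 ± 0.75 in the IZ, a difference of 0.56 that did not pass the exact two-sided permutation test (p = 0.142, adjusted 0.189). Without IZ replicate 1 the difference was 0.74 and passed (adjusted p = 0.0425, exact permutation test).

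Among inhibitors of cyclin-dependent kinases, 6 of the 7 listed genes were tested, Cdkn1c included. Of these, 3 were called higher (36.3% of all genes tested), 2 lower (33.1%) and 1 was not called. Cdkn1a, which encodes p21, rose from 16.7 ± 6.73 to 48.7 ± 7.31 CPM without overlap (log2 fold change 1.55 ± 0.18, SE, adjusted p = 1.02e-07, edgeR). Cdkn2c, p18, rose by 0.75 on the log2 scale. Cdkn2b, p15, reached 2 counts at the most in sham and held 9 to 73 in the IZ. This is at least 3.71-fold higher against a floor of 3 counts per library. Cdkn2b met the filter only through the IZ, which favours a call as higher. Cdkn1b, p27, was called lower at -0.25, passed the threshold in 8 of 25 alternative settings, and was higher by 0.82 under total counts alone. It lost the call without sham replicate 2, 4, 6 or 8 or without any 1 of IZ replicates 2 to 9 (adjusted p 0.0503 to 0.137, edgeR). Cdkn2d, p19, stood at 25.3 and 27.3 CPM and was not called. Cdkn2a did not pass the filter.

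The cyclins and kinases of the G1 phase, on which these inhibitors act, were called higher in 4 of 7 tested genes and lower in 1. Over all genes tested, 36.3% were called higher and 33.1% lower. Cdk4 rose by 1.38, Cdk6 by 1.36, and Ccne2 by 1.52 on the log2 scale. Ccne2 had 2 to 5 counts per library in sham and met the filter only through the IZ, which favours a call as higher. Cdk2 was called at 0.50 (adjusted p = 0.0306, edgeR), but lost the call under the replicate block (0.0537) and without sham replicate 5, 6, 7 or 8 (adjusted p 0.0551 to 0.0803). Ccnd2 stood at 234 ± 20.9 CPM in sham and 125 ± 36.9 CPM in the IZ (log2 fold change -0.91, and 0.13 under total counts alone). Ccnd1 and Ccnd3 were not called. Without IZ replicate 1 Ccnd1 passed as lower (log2 fold change -0.28, adjusted p = 0.0494), and without IZ replicate 5 Ccnd3 passed as higher (0.25, adjusted p = 0.0483, edgeR). Ccne1 was not tested. Proliferation markers, summed, stood at 38.4 to 47.7 CPM in sham and 129 to 272 CPM in the IZ. Of these, 7 of 7 were higher, from Mcm2 at 0.80 to Birc5 at 3.93 on the log2 scale. Mki67, Top2a, Ccnb1, Cdk1 and Birc5 had at most 9, 7, 3, 12 and 9 counts in a sham library. They met the filter only through the IZ, which favours a call as higher, and the size of their folds is uncertain. The part of the proliferation markers in the levels of Cdkn1c and of its family was not tested.

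Grb10 is an adaptor protein that binds the receptors of insulin and of insulin-like growth factors (IGF) and dampens their signal. It lies on chromosome 11 at 11930508 to 12038683, on the minus strand (ENSMUSG00000020176), and was the most abundant of the 10 in sham. In sham it stood at 49.9, 63.9, 63.5, 41.4, 47.2, 48.8, 49.98 and 62.7 CPM. In the IZ it stood at 75.7, 86.6, 72.2, 71.2, 68.4, 76.6, 72.0, 74.7 and 97.7 CPM. The groups did not overlap although the change was small under TMM scaling, with 53.4 ± 8.67 against 77.2 ± 9.24 CPM. The log2 fold change was 0.54 ± 0.11 (SE, adjusted p = 0.000137, edgeR). Scaled by total counts alone, the log2 fold change of Grb10 was 1.61 (adjusted p = 7.03e-11, edgeR). Its spread between libraries was the smallest of the 10, with a coefficient of variation of 16.2% in sham and 11.97% in the IZ. Its relative Grb14 fell without overlap, from 175 ± 37.3 to 25.3 ± 18.1 CPM (-2.80 ± 0.26, SE, adjusted p = 2.05e-09, and 19.3 ± 3.27 CPM without IZ replicate 1), and Grb7 was at 0 in all sham libraries.

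Of 15 genes of IGF and insulin signalling, 13 were tested. Of these, 5 were called higher and 3 lower (36.3% and 33.1% of all genes tested). Igf1, the growth factor, rose from 34.8 ± 4.86 to 200 ± 29.3 CPM, by 2.53 on the log2 scale. The binding proteins Igfbp7 and Igfbp4 rose by 2.02 and 1.10. The insulin receptor gene Insr went from 95.7 ± 16.5 to 23.4 ± 7.14 CPM (log2 fold change -2.06). The list's median was 0.32.

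Mest encodes a membrane enzyme of the alpha/beta hydrolase fold and lies on chromosome 6 at 30723547 to 30748465, on the plus strand (ENSMUSG00000051855). It showed the highest fold change of the 8 members tested, close to that of H19 at 2.97 ± 0.21 on the log2 scale (SE). The difference between these members was not tested. In sham replicates 1 to 8 Mest stood at 7.59, 6.72, 8.63, 4.42, 5.13, 6.55, 5.72 and 9.35 CPM. In IZ replicates 1 to 9 it stood at 45.2, 57.8, 59.6, 75.5, 44.9, 56.5, 73.6, 39.4 and 41.5 CPM. There was a wide gap between the groups, and the mean rose from 6.76 ± 1.70 to 54.9 ± 13.3 CPM, by 3.04 ± 0.18 on the log2 scale, or 8.21-fold (SE, adjusted p = 2.91e-12, edgeR).

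The 3′ end of Mest overlaps exons of Copg2, a gene of vesicle transport on the opposite strand. Whether counting used strand is not given in the sources used here, so tags of Mest and Copg2 may be shared. The levels of both genes and their ratio carry this limit. Copg2 went from 24.9 ± 3.86 to 17.015 ± 4.63 CPM (log2 fold change -0.55, adjusted p = 0.00339, edgeR, and 0.53 under total counts alone). The log2 ratio of Mest to Copg2 went from -1.81 ± 0.44 to 1.68 ± 0.63, a difference of 3.49 or 11.3-fold in 9 of 9 IZ libraries (exact two-sided permutation test, p = 4.11e-05, the smallest possible, adjusted 8.23e-05).

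**Figure D3:**
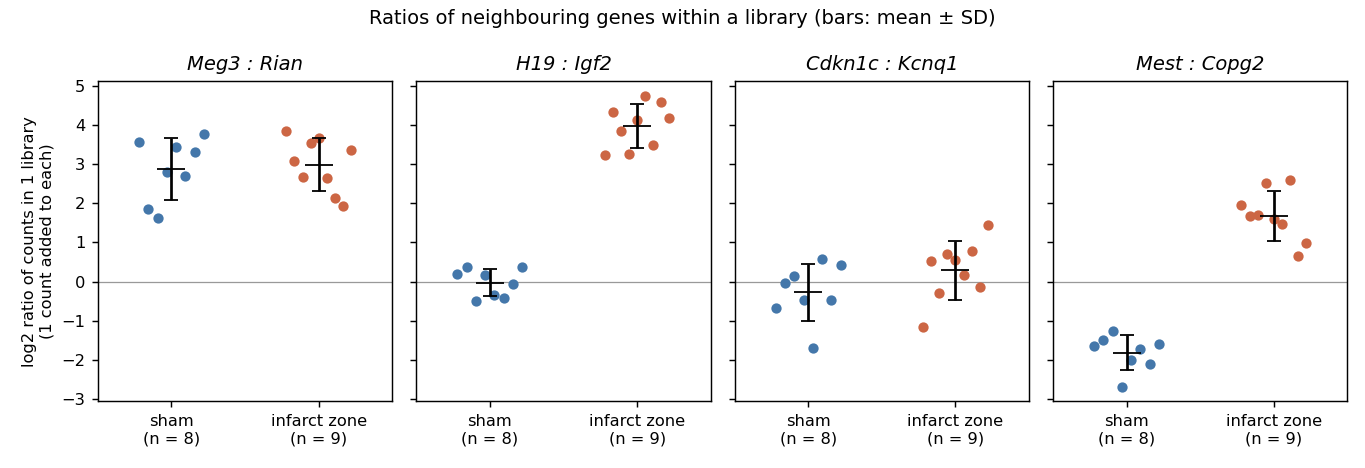
Log2 ratio of the counts of neighbouring genes within a library (vertical axis, 1 count added to each gene), in 8 sham and 9 IZ libraries, for 4 pairs. Points are libraries and bars the mean ± SD. The ratios of H19 to Igf2 and of Mest to Copg2 do not overlap between the groups, and those of Meg3 to Rian and of Cdkn1c to Kcnq1 do.

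Peg3 encodes a large zinc finger protein and lies on chromosome 7 at 6703892 to 6730431, on the minus strand (ENSMUSG00000002265). In sham it stood at 1.63, 8.74, 6.27, 5.52, 5.64, 6.55, 5.72 and 3.85 CPM. In IZ replicates 1 to 9 it stood at 27.3, 13.1, 8.82, 7.26, 15.7, 10.1, 10.2, 4.09 and 9.37 CPM. The IZ library richest in cardiomyocyte markers, replicate 1, was the highest, and 7 of 9 IZ libraries exceeded all of sham. The mean rose from 5.49 ± 2.07 to 11.8 ± 6.68 CPM, by 1.11 ± 0.32 on the log2 scale (SE, adjusted p = 0.00377, edgeR). Without IZ replicate 1 the IZ mean was 9.83 ± 3.51 CPM and the log2 fold change 0.82, still past the threshold. Its neighbours Usp29, whose start is 0.147 kb away, and Zim1 had at most 2 and 4 counts in a library.

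Ndn encodes necdin, a protein of the MAGE family that is known in postmitotic neurons, and lies on chromosome 7 at 62346569 to 62350262, on the plus strand (ENSMUSG00000033585). It stood at 11.9, 14.8, 20.4, 16.6, 13.3, 8.74, 10.3 and 13.8 CPM in sham. In the IZ it stood at 22.6, 28.7, 24.7, 27.3, 39.3, 31.3, 32.2, 30.7 and 31.8 CPM. The groups did not overlap, and the mean rose from 13.7 ± 3.66 to 29.8 ± 4.85 CPM, by 1.12 ± 0.15 on the log2 scale (SE, adjusted p = 7.66e-07, edgeR). Of its relatives, Maged1 rose by 1.10 and Maged2 by 2.28 on the log2 scale, and Nsmce3 stood at 19.1 and 19.3 CPM. Its nearest imprinted neighbours were rare: Mkrn3, 73.6 kb away, had at most 16 counts in a library, and Peg12, 118 kb away, ranged over 0 to 10 counts in sham libraries and 4 to 32 in IZ libraries, and neither passed the filter. Snrpn and Ube3a, 2206 and 3118 kb away, were lower in the IZ, at -2.36 and -0.83 (0.24 for Ube3a under total counts alone). Snrpn averaged 5.14 CPM in the IZ and 3.31 CPM without IZ replicate 1.

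Plagl1 encodes a zinc finger transcription factor that regulates other imprinted genes, and lies on chromosome 10 at 13060504 to 13131694, on the plus strand (ENSMUSG00000019817). It had 0 to 10 counts per library in sham and 4 to 74 in the IZ and did not pass the filter. In sham it stood at 1.63, 2.02, 1.57, 2.21, 5.13, 0, 2.29 and 1.65 CPM, and in the IZ at 2.87, 10.2, 6.86, 5.88, 13.5, 5.40, 2.15, 3.07 and 6.02 CPM. Above every sham library lay 6 of the 9 IZ libraries. Its log2 CPM was higher in the IZ by 1.52 (exact two-sided permutation test, p = 0.0023, a test added after the values were seen), and without a filter its log2 fold change was 1.59 ± 0.39 (SE, adjusted p = 0.000889, edgeR). Its relative Plagl2 stood at 5.19 and 7.36 CPM and missed the threshold (adjusted p = 0.0571, edgeR). It passed without sham replicate 4 or without IZ replicate 1, 5, 6 or 7 (adjusted p 0.0279 to 0.0443), and Plag1 was near 0.

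The order of levels differed between the groups. In sham Grb10 led at 53.4 CPM, followed by Cdkn1c, Meg3, H19 and Ndn at 25.8, 22.4, 16.7 and 13.7 CPM. The ranges of each neighbouring pair among the last 4 overlapped. Then came Mest, Peg3, Rian and Plagl1 at 6.76, 5.49, 2.94 and 2.06 CPM, with ranges that again overlapped from neighbour to neighbour, and Dlk1. In the IZ Meg3 and H19 led at 145 and 133 CPM with overlapping ranges, ahead of Grb10 at 77.2, Mest at 54.9, Ndn at 29.8, Rian at 19.7, Peg3 at 11.8, Cdkn1c at 7.69 and Plagl1 at 6.21 CPM. Cdkn1c went from the second to the eighth place. Dlk1 was again the lowest in the IZ. There the ranges of neighbouring pairs overlapped from Meg3 down to Plagl1 except those of Mest and Ndn, at 39.4 CPM for the lowest Mest and 39.3 CPM for the highest Ndn value. No test was made of this order.

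Of 55 other imprinted genes listed, 51 had a row and 27 passed the filter. Of these 27, 10 were called higher (36.3% of all genes tested), 15 lower (33.1%) and 2, Airn and Dcn, not called. Without IZ replicate 1, 8 were called higher and 15 lower. Atp10a, Tfpi2 and Gatm, called higher, had at most 11, 5 and 7 counts in a sham library. They met the filter only through the IZ, and genes called lower can likewise have met it through sham. The median log2 fold change of the 27 was -0.67. Higher in every IZ library were 3 of them and lower in every IZ library 7 (16.6% and 16.5% of all genes tested). The number called lower was 6 when libraries were scaled by total counts alone, where the median of all genes moved up by 1.08 on the log2 scale. H13, a signal peptide peptidase, rose from 38.8 ± 6.04 to 102 ± 12.7 CPM without overlap (log2 fold change 1.40). Ppp1r9a, neurabin, fell from 20.6 ± 6.10 to 3.61 ± 2.48 CPM (-2.54). The noncoding RNA Peg13 and the gene Blcap fell by 1.45 and 1.39 on the log2 scale. Gab1, Commd1 and Gnas were lower by 0.93, 0.87 and 0.67 on the log2 scale, and higher by 0.14, 0.20 and 0.41 under total counts alone. Thus the other imprinted genes went both ways, and no test was made of the difference between the members and these genes.

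**Figure D4:**
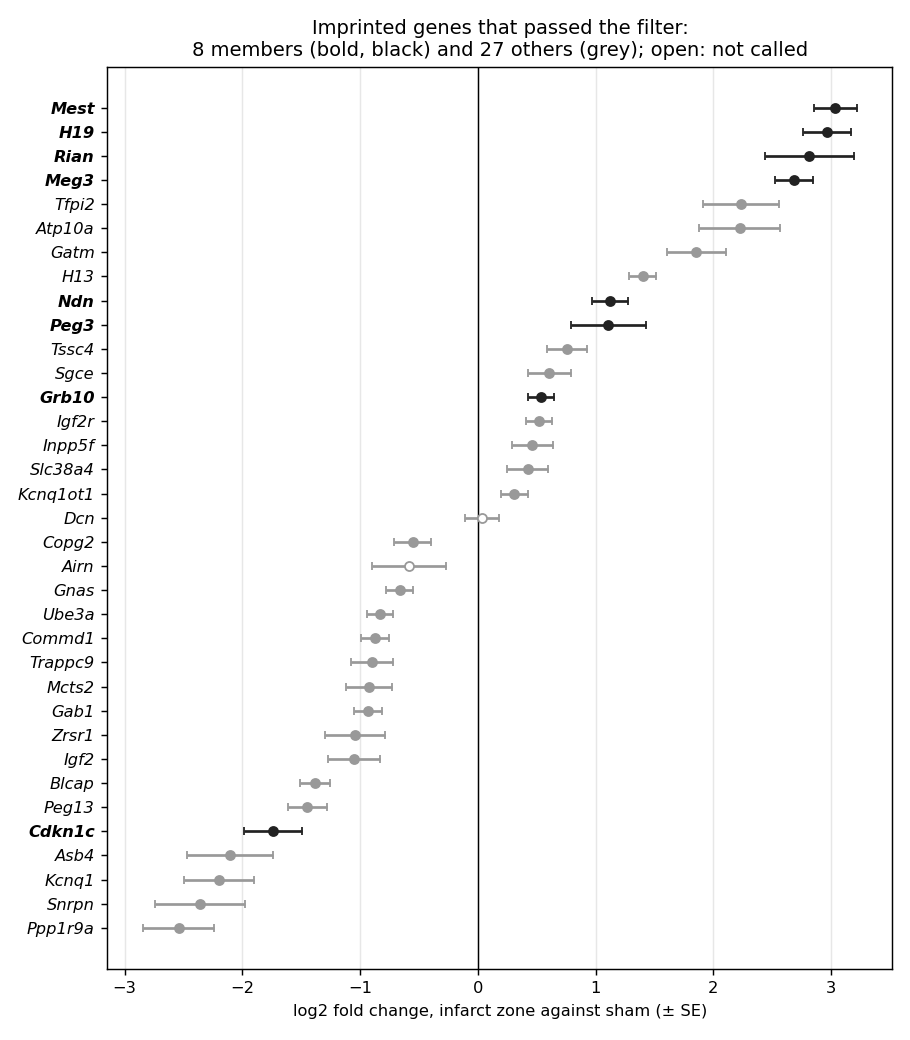
Log2 fold change of the IZ against sham (horizontal axis, ± SE) for the 35 imprinted genes that passed the filter, sorted. Names in bold with black points are the 8 members and grey points are 27 other imprinted genes, and the 2 open points were not called. Mest, H19, Rian and Meg3 stand at the top and Cdkn1c stands near the bottom.

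Factors that set or keep imprints were called higher in 3 of 6 tested genes and lower in 1 (36.3% and 33.1% of all genes tested). Uhrf1, which guides maintenance methylation, rose from 1.09 ± 0.707 to 11.9 ± 4.27 CPM (log2 fold change 3.36). Uhrf1 had only 0 to 6 counts per library in sham, so the size of its fold is uncertain. It met the filter only through the IZ, which favours a call as higher. The methyltransferase Dnmt1 rose by 1.201 on the log2 scale. Trim28, the corepressor of Zfp57, rose by 0.62. Zfp445 went from 46.9 ± 6.05 to 25.7 ± 1.24 CPM (-0.87, and 0.21 under total counts alone). Ctcf stood at 38.1 and 37.5 CPM, and Dnmt3a at 32.6 CPM in both groups, and neither was called. Zfp57 and Dnmt3b did not pass the filter. Of 10 genes of DLK and Notch signalling, 8 were tested, with a median log2 fold change of -0.09. Of these, 2 were called higher and 2 lower, against the same shares of all genes tested. The ligand Jag1 rose by 1.39.

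Markers of several cell types moved with these levels. The fibroblast markers summed to 964 to 2092 CPM in sham and 11759 to 19847 CPM in the IZ, and 8 of 8 were higher, from Pdgfra at 0.94 to Col1a1 at 4.002 on the log2 scale. The macrophage markers summed to 183 to 244 and 1112 to 1940 CPM, and 6 of 6 were higher, from Csf1r at 2.31 to Cd68 at 4.09. The cardiomyocyte markers were lower in 8 of 8, from Tnni3 at -4.19 (-5.00 without IZ replicate 1) to Actc1 at -2.12. Endothelial markers summed to 441 to 874 and 331 to 538 CPM, with 2 of 6 lower (Kdr -1.70, Emcn -0.04 and not called), and mural cell markers to 371 to 618 and 241 to 452 CPM, with 1 higher and 3 lower (Kcnj8 -1.80, Pdgfrb 0.96). The part of these cell types in the levels of the 10 genes was not tested.

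Markers of tissues that a heart sample may carry along varied between libraries. Mesothelial markers summed to 8.28 to 20.8 CPM in sham and 7.18 to 130 CPM in the IZ (Msln 2.22, Wt1 0.03 and not called). Msln had 0 to 9 counts per library in sham and met the filter only through the IZ. Skeletal muscle markers summed to 14.9 to 45.3 and 11.8 to 39.1 CPM, and to at most 24.8 CPM in the IZ without replicate 1. Mybpc2 stood at -1.40 on the log2 scale, and at -2.03 without IZ replicate 1. The defining gene Myh4 was at 0 in every library. Tnnt3 had at most 3 counts in sham and was at least 2.68-fold higher in the IZ. Adipocyte markers summed to 1.63 to 25.6 and 0 to 209 CPM with no gene tested. The highest adipocyte and mesothelial sums were both in IZ replicate 2, the library highest in Meg3 and Mirg, and the other IZ libraries reached 65.5 and 74.8 CPM. Without IZ replicate 2 the log2 fold change was 2.64 for Meg3, 2.996 for H19 and 3.05 for Mest. The part of these tissues was not tested otherwise.

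Whether members varied together among animals was tested within each group over the 8 tested members, 28 pairs in each group and 56 in all. No pair passed after adjustment in either group. At an unadjusted p under 0.05 for Pearson's r there was 1 pair in the IZ and there were 2 in sham. In the IZ, H19 and Mest ran in opposite directions over 9 libraries, with r = -0.73 (exact permutation p = 0.0134, adjusted 0.382) and rho = -0.83 (exact permutation p = 0.00827, adjusted 0.463), and r = -0.63 without the 2 libraries farthest from the median. Scaled by total counts r was -0.32. In sham, Mest and Grb10 had r = 0.82 (exact permutation p = 0.0136, adjusted 0.382) and Meg3 and Mest r = 0.73 (exact permutation p = 0.0439, adjusted 0.791). Without the 2 farthest libraries these were 0.63 and 0.57, and 0 sham pairs passed unadjusted. By rho, the sham pairs under 0.05 were Rian and Cdkn1c (0.76, exact permutation p = 0.0368), Rian and Peg3, and Mest and Grb10. The last 2 each had rho = 0.74 (exact permutation p = 0.0458), and all 3 an adjusted p of 0.564.

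As a description, the genes whose log2 CPM deviated from the group means most like a member were sought among 9314 genes over the 17 libraries. For H19 they were Rnf220, Cacfd1 and Ift52 (r = 0.82, 0.82 and 0.80), for Meg3 Wrb, Ogt and Cd2ap (0.82, 0.80 and 0.80), and for Cdkn1c Gm11808, Aamdc and Atg4b (0.72, 0.71 and 0.71). These points share the library and its scaling, and no member was among the genes found. The r values were picked as the highest of 9314 for each member and were not tested.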

How the data were processed

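Total RNA was treated with DNase, and the authors made libraries of 3′ ends (Massive Analysis of cDNA Ends) in which molecular identifiers served against PCR duplicates. They trimmed reads by Cutadapt, mapped them to mm10 and obtained counts by HTSeq. The submitters' processing notes also name bcl2fastq, Bowtie2 and DESeq2. The strand setting of the counting and the annotation release are not given in the sources used here. The deposited values are raw counts per gene with no normalization, in 1 table of 31647 features and 17 libraries, of which 35 are merged overlapping genes and were given no name. Each column was tied to its sample by the library name in the labels.

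Genes passing filterByExpr (minimum of 10 counts) were fitted with edgeR 4.0.16 in R 4.3.3, with TMM scaling and the quasi-likelihood F-test without covariates over all 17 libraries, two-sided and adjusted by the Benjamini-Hochberg method over 12301 genes. Standard errors were derived from the F statistic. Levels in CPM use the scaled library sizes, and log2 CPM a prior count of 1. Ratios were tested by exact permutation over 24310 splits, and correlations by exact permutation with SciPy 1.17.1. Only pairs whose genes averaged at least 3 counts were formed. The fit was tested on simulated data. Near copies were sought with BLAST 2.17.0. Depth was 1237675 to 4738307 counts, and floors cover counting error only.

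Members and gene lists were chosen with earlier results of these data known. Named were the 10 members, every gene of the short lists, called genes of the longer lists that averaged 10 CPM or more in either group without overlap (at most 8 in each direction), the highest and lowest of each marker list and, for 3 members, the 3 genes most like them. Genes named beyond this rule, such as the neighbours of the members, were taken for their position in the same imprinted domain or on the same chromosome. Listed genes without a row were not analysed here, and the result of 1 marker list is not reported here. Alternatives were other scalings and filters, DESeq2 1.42.0, a replicate block, removal of mitochondrially encoded features and of each library. Each library is 1 mouse by the study's design, and the labels give no batch or date.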

Additional observations from a re-analysis of the deposited data

Results flagged for a closer look

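In 3 of 26 groups of values tested, the lowest library lay farther from the others than Dixon's limit allows, and chance gives about 1 in 20. The log2 CPM of H19 was 3.07 in sham replicate 6 and 3.93 to 4.44 in the other sham libraries. That of Cdkn1c was 3.604 in sham replicate 5 and 4.54 to 5.16 in the others. That of Plagl1 was -1.46 in sham replicate 6, where it had no counts, and 0.95 to 2.46 in the others.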

How the results depend on the processing

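The 8 members tested kept their direction and their call in every alternative in which they passed the filter, which were 24 or 25 of 25. With a minimum mean of 50 counts, 5239 genes were called, 5 members were called with 0 lower, and 12 other imprinted genes were called, 5 higher and 7 lower, since fewer genes were tested. Under total counts alone, 10710 genes were called, 85.7% of them higher (52.3% in the reported fit), the median of all genes moved by 1.08 on the log2 scale (0.11 with upper quartile scaling), 6 other imprinted genes were lower, and log2 fold changes turned positive for Cdkn1b (0.82), Ccnd1 (0.93), Ccnd2 (0.13), Zfp445 (0.21), Ctcf (1.07), Dnmt3a (1.07), Gab1 (0.14), Commd1 (0.20), Ube3a (0.24), Gnas (0.41), Emcn (1.03), Igf2 (0.016) and Copg2 (0.53). Rising members rose more under total counts alone, by 4.05 for H19, 3.78 for Meg3, 3.91 for Rian and 4.12 for Mest. On the same log2 scale Peg3, Ndn and Grb10 rose by 2.14, 2.20 and 1.61. The difference in the ratio of Meg3 to Rian was 0.69 with 5 counts added, and the cause was not tested. Leaving out 1 library in turn gave -0.07 to 0.24 for it, 0.36 to 0.74 for Cdkn1c to Kcnq1, 3.91 to 4.09 for H19 to Igf2 and 3.37 to 3.62 for Mest to Copg2, with 7962 to 8614 genes, 8 to 9 members and 23 to 26 other imprinted genes called. The replicate numbers do not pair the samples, since same-numbered samples correlated at -0.22 to 0.13 and 1 of 8 correlated best with its own number. With the replicate block 8078 genes and 8 members were called. Depth limits Dlk1, Plagl1, Rtl1, Dio3 and the ratios of Rian.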
